A study of Mus musculus with 3 samples.

Results

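Translation initiation factor genes were described in ureteric tip cells of mouse embryos, on 3 Affymetrix arrays that form 1 group. Members were the genes whose symbol in the platform annotation begins with Eif and a digit from 1 to 6, measured by a probe set with that symbol alone. Eif2s3x and Eif2s3y were left out. This gave 47 genes, measured by 56 probe sets, among 19938 genes with such a probe set. The cells came from Hoxb7-GFP transgenic CD-1 embryos (transgene Tg(Hoxb7-EGFP)33Cos) at 10.5 days post coitum, Theiler stage 18, of unknown sex. Regulatory sequence of Hoxb7 makes the nephric duct and the ureteric bud of these mice fluoresce green. The bud is the epithelial outgrowth that branches into the collecting system of the kidney. Each array held the sorted cells of 1 bud, not a pool, and all arrays carry the transgene, so there is no untreated or wild-type group. The labels do not say whether the buds came from separate embryos. A p-value here weighs a gene's distance from the background level, given below, against spread. The only spread between buds that it can hold is that of these samples. The arrays are named 1, 2 and 3 after the sample titles, and the numbers carry no order.

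Initiation factors bring an mRNA, the initiator tRNA and the ribosomal subunits together at a start codon. The GTPase eIF2 carries the initiator methionyl-tRNA, and eIF2B recharges eIF2 with GTP after each round. Kinases that phosphorylate the alpha subunit of eIF2 turn it into an inhibitor of eIF2B, which lowers translation of most mRNAs. The large complex eIF3 sits on the small ribosomal subunit and holds other factors and the mRNA, while the eIF4 factors bind the cap of the mRNA and unwind its leader. The eIF4E-binding proteins compete with the scaffold eIF4G for the cap-binding protein eIF4E, and so block assembly of the cap complex, until the kinase mTOR phosphorylates them.

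All values are signals on a log2 scale, whose base was inferred from the range of the deposited numbers. Different probes respond differently to the same amount of RNA, so signals of different genes are listed side by side and not ranked. Array medians were 5.47, 5.50 and 5.48 log2. Background was set on each array by 1035 probe sets of olfactory receptor genes, taken as silent in this tissue, whose 95th percentile was 5.40, 5.45 and 5.41 log2. Of all genes, 51.7% had 1 identical value on all arrays, so the table holds no spread between buds for them. The share was 23.4% of the members (11 of 47). In 9.05%, 10.8% and 8.85% of all genes only array 1, 2 or 3 differed, and the other arrays were identical. Among the members these shares were 10.6%, 8.51% and 6.38%. Markers of the ureteric tip and nephric duct were above background in 18 of 18 genes. Those of other cell types were above it in 9 of 12 endothelial, 5 of 9 erythroid, 3 of 9 mesenchymal, 3 of 8 stromal and 3 of 8 leukocyte genes measured. Of all genes, 53.0% were above it. A gene with a wide spread between arrays could miss this despite high signals on some of them.

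Nearly the whole set of initiation factor genes gave a signal above background in the buds. In a limma test that a gene's mean lies above the background level (one-sided, Benjamini-Hochberg adjustment over all genes), 44 of 47 members were called, or 93.6%, where 53.0% of all genes were called. The adjusted p of the called members was 0.00818 or less. The 3 members not called were Eif2ak3, which encodes the eIF2 kinase PERK of the endoplasmic reticulum, Eif4e1b, a relative of the cap-binding protein, and Eif4a3l1, a gene resembling the helicase gene Eif4a3. Their means minus the level were -0.41, -0.16 and -2.12 log2. Eif4e1b, at 5.26 log2 on every array, was called with the 90th percentile (limma, adjusted p = 0.000123) and with vomeronasal receptors as background (limma, adjusted p = 0.000626). Each of these choices called 45 members, where 63.7% and 65.0% of all genes were called. The 99th percentile called 42, where 35.3% of all genes were called, and lost Eif2b4 and Eif5a2. A higher level of 6.82 to 6.91 log2, set by beta-defensin and keratin-associated protein genes, left 34 of 47 members called, where 21.1% of all genes were called.

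**Figure D1:**
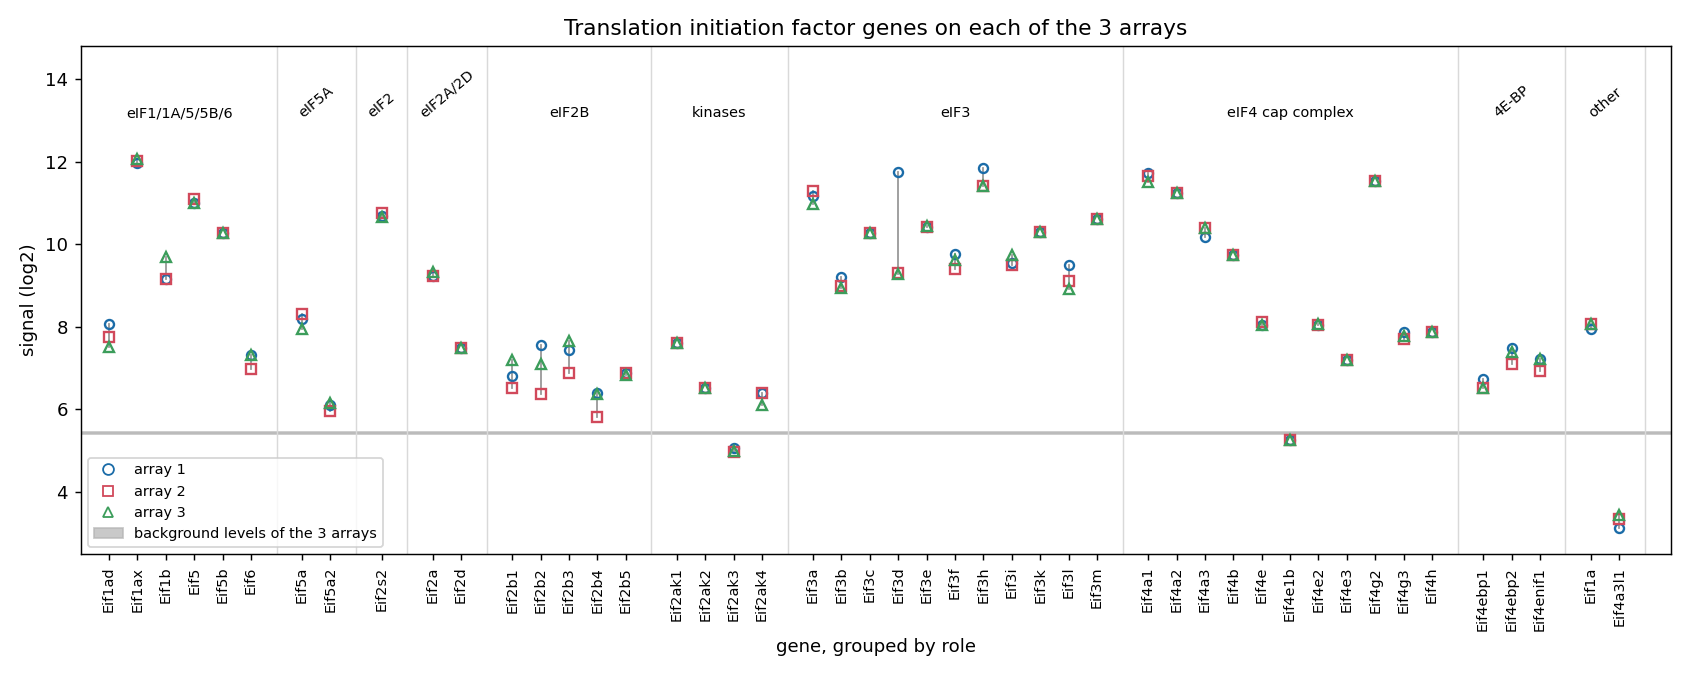
Signal (log2, vertical axis) of each of the 47 genes on arrays 1 (circles), 2 (squares) and 3 (triangles), grouped by role, with a grey band for the background levels of 5.40 to 5.45 log2. A grey line joins the lowest and highest array of a gene: most genes overlap within the symbols, while Eif3d spans 2.46 log2 and Eif2ak3, Eif4e1b and Eif4a3l1 lie under the band.

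The buds gave close values for most members, and 4 of the 8 with a wider range were genes of eIF2B. The range, the highest array minus the lowest, was over 0.5 log2 in 8 of 47 members (17.0%), where 8.38% of all genes passed that limit. The 8 were Eif2b1, Eif2b2, Eif2b3, Eif2b4, Eif3d, Eif3l, Eif1b and Eif1ad. Just inside the limit were Eif1b at 0.52 and Eif1ad at 0.56 log2, and just outside it Eif3h at 0.44 and Eif4ebp2 at 0.40 log2. Each bud is a single sample, so these differences have no test and no replicate check. Among genes above background the share over the limit was 11.7%, and among genes without identical values it was 17.4%, against 22.2% of the 36 members of that kind. The count was 14 members at a limit of 0.3 log2 (15.9% of all genes) and 2 at a limit of 1 log2 (2.37%). Without array 1 it was 5 (Eif1b and the 4 eIF2B genes), where 4.51% of all genes passed. Without array 2 it was 4 (Eif1ad, Eif1b, Eif3d and Eif3l), where 5.54% passed, and without array 3 it was 4 (Eif2b2, Eif2b3, Eif2b4 and Eif3d), where 4.91% passed. The median range was 0.18 log2 for the members, 0.00 for all genes and 0.05 for genes above background. Identical values lower these medians, and they were less frequent among the members. With such genes left out the median range was 0.26 log2 for the members and 0.18 for all genes. The median shift on each array, the value minus the mean of the others, was 0.00 log2 for the members and for all genes.

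**Figure D2:**
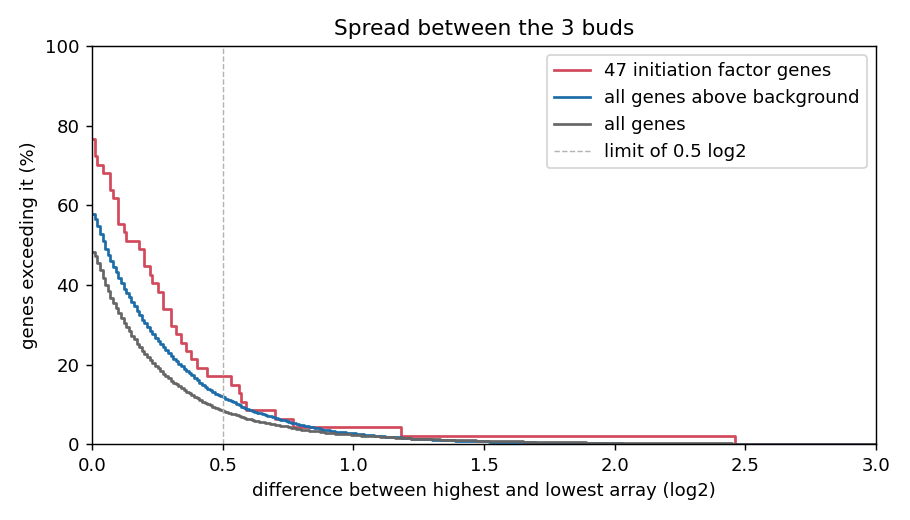
Share of genes (%, vertical axis) whose highest and lowest array differ by more than the value on the horizontal axis (log2), for the 47 members, all genes above background and all genes. At the dashed limit of 0.5 log2 the shares are 17.0%, 11.7% and 8.38%.

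Of the 5 genes of the exchange factor eIF2B, 4 were lowest on array 2, and 3 of these by over 0.5 log2 from both other arrays. The complex consists of a regulatory part, encoded by Eif2b1 (alpha), Eif2b2 (beta) and Eif2b4 (delta), and a catalytic part, encoded by Eif2b3 (gamma) and Eif2b5 (epsilon, which holds the exchange activity). All 5 genes were above background, where 53.0% of all genes were. To show the start regions of Eif2b1, Eif2b2 and Eif2b4, 3 of the 4 genes lowest on array 2, beside that of Eif2b5, the 100 bases before and 30 bases after the RefSeq start are printed below (GRCm38.p6, 5′ to 3′ on the gene's strand). Eif2b3 is not shown. Capitals mark matches to the motifs described after them.
Eif2b1, chr5:124579102-124579231, minus strand: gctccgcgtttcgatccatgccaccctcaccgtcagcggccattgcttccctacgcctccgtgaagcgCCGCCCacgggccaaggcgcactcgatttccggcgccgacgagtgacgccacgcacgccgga
Eif2b2, chr12:85219381-85219510, plus strand: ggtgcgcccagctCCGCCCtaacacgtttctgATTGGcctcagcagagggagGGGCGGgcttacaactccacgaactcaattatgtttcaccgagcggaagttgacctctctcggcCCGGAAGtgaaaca
Eif2b4, chr5:31193110-31193239, minus strand: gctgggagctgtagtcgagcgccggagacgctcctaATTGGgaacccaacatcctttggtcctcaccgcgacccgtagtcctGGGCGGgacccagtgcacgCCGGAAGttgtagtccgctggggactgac
Eif2b5, chr16:20498717-20498846, plus strand: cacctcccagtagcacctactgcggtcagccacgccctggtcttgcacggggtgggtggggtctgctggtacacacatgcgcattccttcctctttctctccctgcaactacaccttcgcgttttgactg

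The letters searched, on both strands, were CCGGAAG (bound by ETS factors), GGGCGG (the GC box), CCAAT (the CCAAT box), CACGTG (the E-box) and TATAAA (the TATA box). Eif2b2 and Eif2b4 held CCGGAAG after the start, a GC box and a CCAAT box before it. Eif2b1 held a GC box only, and Eif2b5 held none of these letters in its window. In the same window of all 32851 RefSeq promoters, CCGGAAG was found in 6.17%, GGGCGG in 27.5%, CCAAT in 21.7%, CACGTG in 3.98% and TATAAA in 6.38%. Of the 37 members with an entry, 12 held CCGGAAG (32.4%), 22 GGGCGG (59.5%), 11 CCAAT (29.7%), 7 CACGTG (18.9%) and 1 TATAAA (2.70%). The units differ: the share over all promoters counts each entry, while a member gene counts if any of its entries matches. A gene with more than 1 entry thus has more chances to match, so the shares are not directly comparable. The windows of Eif2b1, Eif2b2, Eif2b4 and Eif2b5 were 69.2%, 57.7%, 63.8% and 59.2% G and C, and the median of all promoters was 54.6%. A match is a string of letters and not a measured site.

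Eif2b2 had signals of 7.56, 6.38 and 7.11 log2 on arrays 1, 2 and 3, a mean of 7.02 ± 0.59 (SD, n = 3). Eif2b3 had 7.45, 6.88 and 7.65 log2, or 7.33 ± 0.40. Eif2b4 had 6.39, 5.82 and 6.38 log2, or 6.20 ± 0.32. In these 3 genes array 2 lay below both other arrays by over 0.5 log2, which 1.06% of all genes did. No other member of the set did so. Array 2 and the direction were picked after these values were seen, so the share is a description and not a test. Eif2b1 had 6.80, 6.51 and 7.20 log2, or 6.84 ± 0.35, so that array 2 was again the lowest, with a difference from array 1 of -0.29 log2. Eif2b5 did not share the pattern: it had 6.89 log2 on arrays 1 and 2 and 6.83 on array 3. Its values on arrays 1 and 2 are identical, so they hold no spread between these buds. Array 2 was the lowest array in 4 of the 5 eIF2B genes, in 14 of 47 members (29.8%) and in 10.6% of all genes. Genes with identical values have no lowest array and lower these shares. With them left out array 2 was the lowest in 14 of 36 members and in 2109 of 9627 genes. Of those 36 members 34 were above background. Among all genes above background without identical values, array 2 was the lowest in 1644 of 6118. The median shift of the 5 genes on array 2 was -0.56 log2, and it was -0.57 with quantile normalization and -0.58 with each array centred on its median. At the level of the beta-defensin and keratin-associated protein genes 0 of the 5 genes were called above background (limma, adjusted p from 0.07 to 1). There 21.1% of all genes were called. Of the 5, only Eif2b3 had an unadjusted limma p under 0.05 at that level.

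Endothelial markers and embryonic globin genes were also lowest on array 2. All 12 endothelial markers were lowest on array 2. The sum of their log2 values, which is not the log2 of a summed signal, was 79.2, 70.8 and 83.4 on arrays 1, 2 and 3. The vascular cadherin gene Cdh5 had 8.22, 5.89 and 8.07 log2 and the sialomucin gene Emcn 8.37, 6.73 and 9.55. Of 9 erythroid markers 3 were lowest on array 2, all of them embryonic globin genes, among them Hbb-y with 8.86, 5.48 and 8.52 log2. The sum of the log2 values of the list was 56.4, 49.0 and 54.5. Of the erythroid list Hba-x, Alas2, Slc4a1, Tal1 and Epor were called above background, and Hbb-y, Hbb-bh1, Klf1 and Gata1 were not. The call weighs the spread between arrays, so it does not tell a silent gene from a variable one. Hbb-y and the endothelial gene Kdr lay above the level on each array but missed the call (limma, adjusted p = 0.053 and 0.0548). Alas2 and Epor passed at 5.64 and 5.51 log2 with identical values. The stromal markers were identical on all arrays. Markers of the tip and duct were lowest on array 2 in 4 of 18 genes and on array 3 in 10. The sums of their log2 values were 149.8, 145.2 and 143.1. The part of other cells in the eIF2B values was not tested, and in bulk samples fewer cells of a type and less RNA per cell cannot be told apart.

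**Figure D3:**
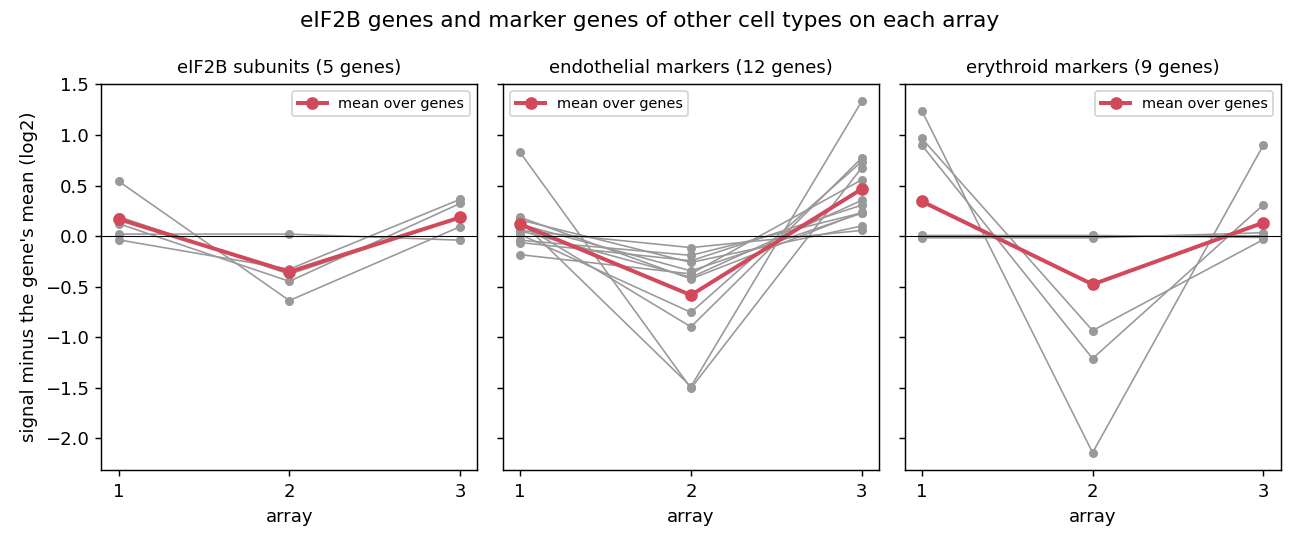
Deviation of each gene from its own mean over the arrays (log2, vertical axis) on arrays 1 to 3, for 5 eIF2B genes, 12 endothelial and 9 erythroid markers. Each grey line joins the values of 1 gene, the red line joins the means over genes, and the arrays have no order; the red line is lowest on array 2 in each panel.

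The measured gene of eIF2 itself varied little between the buds. Eif2s2, which encodes the beta subunit of eIF2, had 10.69, 10.76 and 10.67 log2, or 10.71 ± 0.05 (SD, n = 3), from 2 probe sets that were both highest on array 2. It was the only eIF2 subunit gene among the members, so eIF2 as a complex rests on 1 gene here, and Eif2s1 is not analysed here. Eif2a, whose product can deliver initiator tRNA without eIF2, had 9.23, 9.23 and 9.34 log2. Eif2d, which encodes a separate tRNA-binding factor, was identical on the arrays at 7.50 log2.

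Of the kinases of eIF2 alpha, 3 of 4 were above background, where 53.0% of all genes were. Eif2ak1, the heme-regulated kinase HRI, was at 7.61 log2 and Eif2ak2, the kinase PKR that responds to double-stranded RNA, at 6.51, both identical on all arrays. Eif2ak4, the amino acid sensor GCN2, had 6.39, 6.39 and 6.12 log2. Eif2ak3, the kinase PERK, had 5.06, 4.97 and 4.99 log2 and did not pass the test. The largest range among the kinase genes was 0.27 log2, but the identical values of Eif2ak1 and Eif2ak2 hold no spread between buds. The integrated stress response is the programme that these kinases start. In its list 10 of 13 measured genes were above background, where 53.0% of all genes were. Chac1, Sesn2 and Atf3 were not, at 5.22 ± 0.07, 5.54 ± 0.08 and 4.85 log2, the last identical on all arrays. The widest ranges in that list were those of Atf4, the transcription factor translated when eIF2B is inhibited, with 8.19, 7.81 and 8.19 log2, of Ppp1r15b with 6.68, 6.63 and 7.01, and of Asns with 7.07, 7.07 and 7.40. Both Ppp1r15a and Ppp1r15b, which encode subunits that direct a phosphatase to eIF2 alpha, were above background. A range over 0.5 log2 was seen in 0 of the 13 genes and in 8.38% of all genes.

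All 11 measured eIF3 genes were above background, where 53.0% of all genes were. This held with every choice of background level tried, where 21.1% to 65.0% of all genes were called. Eif3a and Eif3b encode the scaffold subunits and had 11.16, 11.28 and 10.98 log2 and 9.20, 8.98 and 8.94 log2. Eif3i, a WD40 subunit that joins them, had 9.55, 9.50 and 9.74 log2. Of the subunits of the octamer core, Eif3c and Eif3k were identical on the arrays at 10.26 and 10.30 log2. Eif3e had 10.41, 10.41 and 10.44 log2, Eif3f 9.77, 9.41 and 9.61, and Eif3m 10.60, 10.62 and 10.60. Eif3h had 11.84 log2 on array 1 and 11.40 on both others. Eif3g is not analysed here, and Eif3j1 and Eif3j2 share probe sets with both symbols and were left out by the rule.

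Eif3d stood far above its other arrays on array 1. Its product is a cap-binding subunit of eIF3 that serves selected mRNAs. It had 11.74, 9.30 and 9.28 log2, a mean of 10.11 ± 1.42 (SD, n = 3), so that arrays 2 and 3 lay close together and array 1 was 2.45 log2 above their mean. Of all genes, 99.8% had a smaller range, and array 1 lay over 0.5 log2 above both other arrays in 1.99% of them. The value comes from 1 probe set, so there is no other probe set of the gene to set it against. Eif3l, the other member of eIF3 over the limit, had 9.50, 9.10 and 8.92 log2, also with array 1 highest. Array 1 was the highest in 5 of 11 eIF3 genes and in 12.3% of all genes. Genes with identical values have no highest array and lower that share, and 2 of the 11 eIF3 genes were of that kind. With such genes left out array 1 was the highest in 2444 of 9627 genes. Among genes above background it was the highest in 2095 of 10567. The mean deviation of the complex on array 1 was 0.23 log2 with Eif3d and 0.09 without it.

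The genes grouped here as the eIF4 cap complex varied less between buds than those of eIF2B and eIF3. The group takes in Eif4a3, Eif4e2 and Eif4g2, whose products have the separate roles given below. Of 11 measured genes 10 were above background, where 53.0% of all genes were. A range over 0.5 log2 was seen in 0 of the 11 and in 8.38% of all genes. The largest range was 0.23 log2. Identical values account for 5 of these 11 genes. With such genes left out 6 of 6 were above background, where 63.1% of the remaining genes were. The helicase genes Eif4a1 and Eif4a2 had 11.72, 11.65 and 11.51 log2 and 11.24 on every array. Eif4a3, whose product works mainly in the exon junction complex, had 10.17, 10.40 and 10.40 log2, and its probe sets shared with Eif4a3l1 were left out. In all, 10 probe sets that name a member among several symbols were left out. The helicase cofactor genes Eif4b and Eif4h were identical on the arrays at 9.74 and 7.87 log2.

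Among the cap-binding proteins, Eif4e had 8.05, 8.11 and 8.04 log2 as the mean of 3 probe sets. These disagreed in level, from 5.64 on each array for the lowest to 9.30, 9.48 and 9.32 for the highest. Eif4e2, whose product competes for the cap and represses translation, had 8.05, 8.05 and 8.06 log2. Eif4e3, a further cap-binding relative, was identical on the arrays at 7.19 log2. Of the scaffold genes, Eif4g2, whose product DAP5 lacks the eIF4E-binding site, had 11.54 log2 on each array to 2 decimals, and Eif4g3 had 7.87, 7.70 and 7.78. Eif4g1 is not analysed here.

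The 3 measured genes of proteins that bind eIF4E outside the cap complex were above background, where 53.0% of all genes were. Eif4ebp3, whose probe set also names Ankhd1, was left out by the rule. Eif4ebp1 had 6.73, 6.53 and 6.53 log2, or 6.60 ± 0.11 (SD, n = 3), and Eif4ebp2 7.49, 7.09 and 7.38, or 7.32 ± 0.20. Eif4enif1, which encodes the eIF4E transporter 4E-T, had 7.23, 6.93 and 7.23 log2, and both of its probe sets were lowest on array 2. All 3 genes were highest or tied for highest on array 1. The complex mTOR complex 1 acts on the eIF4E-binding proteins. In the list of this complex and its effectors 13 of 14 measured genes were above background, where 53.0% of all genes were. Deptor, an inhibitor of mTOR, was not, at 5.22 log2 on every array. The kinase gene Mtor was identical on the arrays at 6.64 log2, and the widest ranges were those of Pdpk1 with 7.41, 6.93 and 6.84 log2, Akt1s1 with 7.05, 7.05 and 6.76, and Larp1, whose product represses mRNAs of the translation machinery, with 7.28, 7.28 and 7.08. The share over 0.5 log2 was 1 of 14, where 8.38% of all genes passed.

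**Figure D4:**
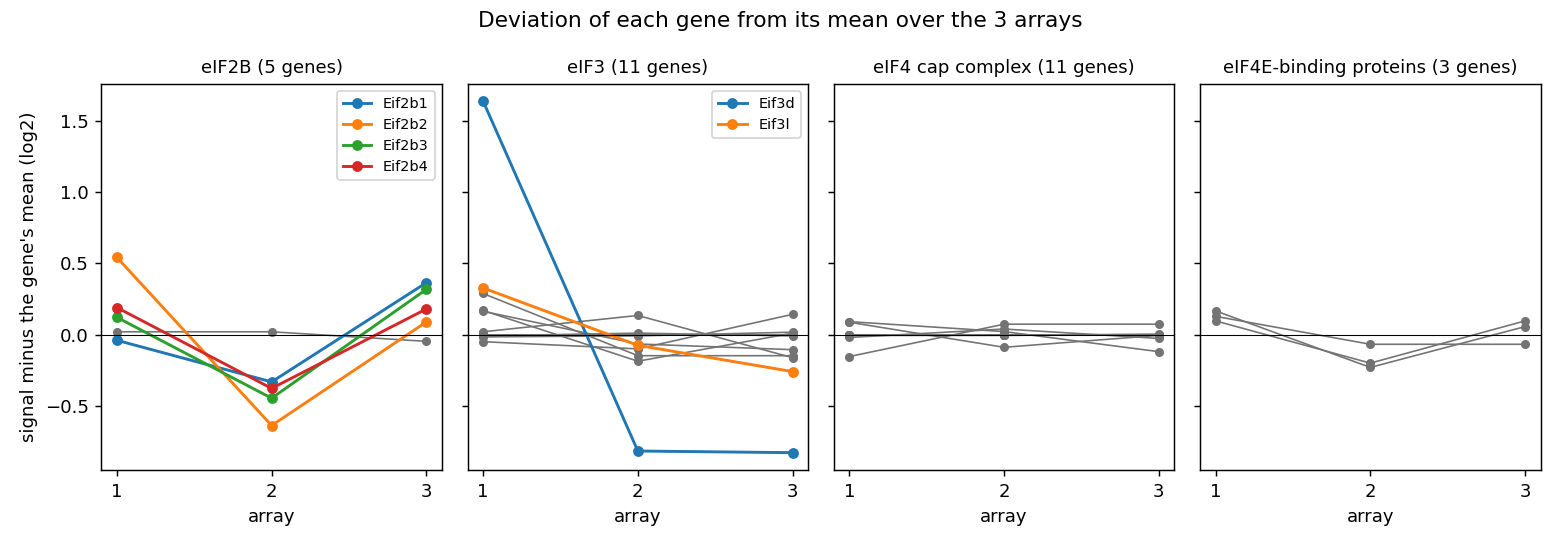
Deviation of each gene from its own mean over the arrays (log2, vertical axis) on arrays 1 to 3, for eIF2B, eIF3, the eIF4 cap complex and the eIF4E-binding proteins. Lines join the values of 1 gene, colours name genes with a range over 0.5 log2, and the arrays have no order; 4 eIF2B genes dip on array 2, Eif3d is high on array 1, and the eIF4 lines stay near 0.

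Set side by side, the complexes differed in how far their genes moved between buds. The median range was 0.69 log2 for the 5 eIF2B genes, 0.27 for the 11 eIF3 genes, 0.30 for the 3 genes of eIF4E-binding proteins and 0.00 for the 11 eIF4 genes (0.05 over all genes above background). Of those 11 eIF4 genes, 5 had identical values on all arrays, which hold no spread. The mean deviation on array 2 was -0.35 log2 for eIF2B, -0.11 for eIF3 (-0.04 without Eif3d), -0.16 for the eIF4E-binding proteins and 0.00 for eIF4. Genes of a complex are not replicates of a bud, and 3 buds allow no test between complexes. Mean signals over the subunits on arrays 1, 2 and 3 were 7.02, 6.50 and 7.03 log2 for eIF2B, 10.39, 10.05 and 10.04 for eIF3, and 8.97, 8.98 and 8.97 for the eIF4 cap complex.

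The factors that place the start codon and join the subunits were above background in 6 of 6 measured genes, where 53.0% of all genes were. Eif1ax, the X-linked eIF1A gene that helps the ribosome scan, had 11.96, 12.02 and 12.06 log2, and its relative Eif1a 7.95, 8.08 and 8.08. Eif1b, a close copy of the start-codon selection factor eIF1, had 9.17, 9.16 and 9.69 log2, with array 3 above both others by over 0.5 log2 as in 1.37% of all genes. Eif1ad, which encodes a protein with an eIF1A-like domain, had 8.07, 7.75 and 7.52 log2, and its range fell under the limit with quantile normalization. Eif5, which makes eIF2 hydrolyse GTP, had 11.01, 11.09 and 11.01 log2, and Eif5b, the GTPase of subunit joining, was identical on the arrays at 10.27. Eif6, which keeps the large subunit from joining too early, had 7.32, 6.98 and 7.32 log2. Eif1 is not analysed here.

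Eif5a and Eif5a2 encode the factor that carries the modified amino acid hypusine and helps ribosomes past difficult stretches. Eif5a had 8.20, 8.32 and 7.94 log2, and both of its probe sets were highest on array 2 and lowest on array 3, by a range of 0.54 log2 in one and 0.21 in the other. Eif5a2 had 6.12, 5.96 and 6.15 log2, and its call was lost at the 99th percentile of the olfactory receptors (limma, adjusted p = 1). Of the enzymes that make hypusine, Dhps was above background at 6.90 log2 and Dohh was not, at 4.62, both identical on all arrays. In the list of elongation and termination factors 12 of 13 genes were above background, where 53.0% of all genes were. Of all genes 8.38% had a range over 0.5 log2, and of this list 3 genes did. These were Eef2, the translocase, with 10.76, 10.06 and 10.25 log2, Gspt2 with 8.45, 8.31 and 7.84, and the release factor gene Etf1 with 9.55, 9.42 and 9.04.

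Other cofactors of initiation outside the symbol rule were above background in 21 of 22 measured genes, without Gigyf1 at 5.54 ± 0.09 log2 (limma, adjusted p = 0.069). Of all genes, 53.0% were above background. The range passed 0.5 log2 in 4 of the 22 cofactor genes, where 8.38% of all genes passed. Mtif3, a mitochondrial initiation factor gene, had 7.14, 6.32 and 6.66 log2, and its partner Mtif2 8.30, 8.56 and 7.98. Ncbp2, which encodes the small subunit of the nuclear cap-binding complex, had 9.67, 9.49 and 9.09 log2. Mcts1 had 7.72, 8.15 and 8.29 log2 and its partner Denr, which recycles ribosomes with it, 10.20, 10.66 and 10.66, both lowest on array 1.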

How the data were processed

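The deposited log2 values, 1 per probe set and array for 35557 probe sets, were made by the authors; the submitters' processing notes name Affymetrix Expression Console. For its version, background correction, normalization and probe summary, the sources used here give nothing. RNA was amplified in 1 round and biotin-labelled, per the labels' protocols. Values were used as deposited. Probe sets with 1 symbol in the platform annotation (21789) were averaged per gene, and 7 members had several. All 47 members matched RefSeq (GRCm38.p6) by gene ID. limma 3.58.1 in R 4.3.3 tested each gene's value minus the background level of its array, called at an adjusted p under 0.05. It was tested on simulated data. Values within 1e-06 count as identical. Their p-values reflect no spread between buds, only that of the background levels and limma's prior.

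Members, gene lists and limits were chosen with earlier results of these data known. All members were open to naming; in other lists the genes not above background and the 3 widest ranges were named, with some partners chosen after their values were seen. The number of arrays limits the precision.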

Additional observations from a re-analysis of the deposited data

How the results depend on the processing

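The count of members above background stayed within 1.5 times of 44 in each alternative run. With other background levels it was 34 to 45, where 21.1% to 65.0% of all genes were called. Quantile normalization and the probe set of highest mean gave 44, where 52.8% and 53.4% of all genes were called. With identical genes left out it was 34 of 36, where 63.1% of the remaining genes were called. Without array 1, 2 or 3 it was 44, where 48.5%, 52.8% and 48.8% of all genes were called. The count with a range over 0.5 log2 moved to 14 and 2 at limits of 0.3 and 1 log2, and to between 4 and 5 with an array left out, since a range needs the arrays that set it. The count of eIF2B genes below both other arrays on array 2 was 3 at limits of 0.3 log2 (2.59% of all genes) and 0.5 log2 (1.06%). It was also 3 under both scalings, and 0 at a limit of 1 log2 (0.176% of all genes). The eIF2B results on array 2, the Eif3d result on array 1 and their alternatives were chosen after seeing the data. With the level set by beta-defensin and keratin-associated protein genes, 6 called members fell below the level: Eif2ak2 (-0.35 log2), Eif2ak4 (-0.57), Eif2b1 (-0.03), Eif2b4 (-0.67), Eif4ebp1 (-0.27) and Eif5a2 (-0.79). A further 4 lost the call there, and 2 at the 99th percentile (Eif2b4 and Eif5a2). The test weighs the spread between arrays as well as the level. At the beta-defensin and keratin-associated protein level Eif2b3 lost the call at 0.46 log2 above it, while Eif4ebp2 kept the call at 0.45. No paired analysis was possible because there is 1 group. Genes near the background level and genes with identical values limit what can be said of differences between buds.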
